A study of Mus musculus with 35 samples.

Results

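The regions described here are 15131 H3K4me3 peaks that were called in wild-type mouse cranial neural crest and overlapped no peak called in crest lacking UTX. They were chosen from the 47966 wild-type peaks on chromosomes 1 to 19 that are under 4000 bp wide, by sharing no base with the peak list of the female knockout, and the 2 lists hold 90922 peaks in all. The choice therefore used the wild-type and female knockout H3K4me3 reads. Any difference between those 2 groups in H3K4me3 at these peaks is given as a description without a test.

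H3K4me3, trimethylation of lysine 4 on histone H3, marks active and poised promoters and is deposited by SET1 and MLL methyltransferase complexes. H3K27me3, trimethylation of lysine 27, is written by Polycomb repressive complex 2 and marks repressed genes, and promoters that carry both marks are called bivalent. UTX, encoded by the X-linked gene Kdm6a, removes methyl groups from H3K27 and is also a subunit of the MLL3 and MLL4 complexes, which mainly methylate H3K4 at enhancers. Cranial neural crest is the migratory embryonic population that gives rise to most of the bone, cartilage and mesenchyme of the face.

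Crest cells were sorted at embryonic stage E12.5 from heads in which Wnt1-Cre recombined a Rosa-Tomato reporter, keeping Tomato-positive cells that excluded the dye DAPI. Chromatin was digested with micrococcal nuclease without fixation, and each mark was profiled in 3 libraries of wild-type males carrying Wnt1-Cre, 3 of Utx fl/fl females with Wnt1-Cre (female knockout) and 1 of Utx fl/y males with Wnt1-Cre (male knockout). The UTX profile comes from 1 library of the O9-1 line, cultured cranial crest derived at E8.5 from Wnt1-Cre, Rosa-GFP embryos, whose cells were fixed with formaldehyde. Deletion is limited to the cells in which Wnt1-Cre was active, and wild type and female knockout also differ in sex, so genotype and sex cannot be told apart between them. The male knockout shares the sex of the wild type but has no replicate. Whether libraries of a group came from separate embryos is not stated, so p-values measure the spread between these libraries, which may be technical.

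Autosomal H3K4me3 peak counts per library ran from 22221560 to 34720078 in wild type and from 34076489 to 39366680 in the female knockout, and came to 38223043 in the male knockout. Pooled over replicates, wild type had 85985299 such counts and the female knockout 107920770. The wild-type list is the longer of the 2 (51701 against 39221 peaks). These counts lie inside the peaks of both lists and are not total reads. The part of sequencing depth in the list lengths was not tested. The separate RNA libraries, 2 per genotype, checked the sorted tissue. All 10 markers of cranial crest and facial mesenchyme exceeded 1 CPM (counts per 1000000 assigned reads) in all 6, with summed levels of 1834 to 2154 CPM. Summed central nervous system markers, 5 genes, were at 112 to 129 CPM in wild type, 39.3 to 42.7 in the male knockout and 30.3 to 46.4 in female knockout libraries, and each of the 5 was higher in both wild-type libraries than in every knockout library. The 3 leukocyte markers showed the same order at 6.25 to 7.79 CPM in wild type and 3.62 to 4.35 in the knockouts. Epithelial markers summed to 12.4 to 17.7 CPM over all libraries and endothelial markers to 5.14 to 10.5. The 3 skeletal muscle markers summed to at most 1.24 CPM and the 3 erythroid markers to at most 0.55, with Hba-a1 at 0 in all 6. The part of the nervous system and leukocyte difference in the chromatin results below was not tested, and in bulk chromatin fewer marked cells and less mark per cell cannot be told apart.

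The wild-type-only peaks were small and weak. Their median width was 393 bp (quartiles 268 and 577, range 141 to 2654) against 1125 bp for the 32835 shared wild-type peaks under 4000 bp. The width limit removed none of them, since every wild-type peak of 4000 bp or more overlapped a female knockout peak. A member held a median of 125 counts summed over the 7 libraries, against 841 for a shared peak. Per kb of peak, the median wild-type level was 2.09 CPM at members and 4.00 CPM at shared peaks. The 2928 peaks called in the female knockout only were of similar size, with a median width of 319 bp and 1.74 CPM per kb in the female knockout. The wild-type-only set was thus made of many sites with few reads each, and values for single members carry large counting errors.

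Members lay mostly apart from knockout peaks and from each other. The median distance to the nearest female knockout peak was 15316 bp, with 10% of members closer than 2088 bp and 10% farther than 76652 bp. Neighbouring members were a median of 61057 bp apart, and 161 of 15112 gaps were under 1000 bp. By chromosome, members made up from 25.1% of the wild-type peaks under 4000 bp on chromosome 7 to 37.8% on chromosome 16. Among 468 windows of 5 Mb with at least 20 such peaks, the median share was 33.0% (quartiles 26.2% and 39.4%). Highest were chr8:130000001-135000000 with 17 of 25, chr5:15000001-20000000 with 26 of 42 and chr3:20000001-25000000 with 16 of 26 (all coordinates mm9).

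Members closest to the boundary of the rule looked like their neighbours across it. The 488-bp member at chr4:139314287-139314774 lay 1 bp from a female knockout peak and held 30, 17 and 36 counts in wild type, 12, 20 and 23 in female knockout libraries and 29 in the male knockout. Another member, at chr2:72077113-72078181, lay 4 bp from such a peak and held 45, 55 and 64 wild-type counts, 27, 34 and 35 in the female knockout and 23 in the male knockout. Just outside, the wild-type peak at chr4:148938661-148938927 shared 3 bases with a knockout peak and held 12, 14 and 15, then 14, 10 and 12, then 17 counts. The peak at chr2:169950628-169951415 shared 4 bases and held 33, 30 and 57, then 36, 17 and 26, then 25 counts. At these 4 peaks, counts on the 2 sides of the rule were of similar size and overlapped. The counts are not scaled for depth. In CPM each female knockout library lay below each wild-type library at all 4. At chr4:148938661-148938927 these were 0.356, 0.290 and 0.352 CPM, against 0.413, 0.630 and 0.432 CPM in wild type.

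In the libraries that chose them, members carried 1.29%, 1.53% and 1.45% of autosomal H3K4me3 peak counts in wild type (1.42% ± 0.119, SD, n = 3) and 0.602%, 0.692% and 0.724% in the female knockout (0.673% ± 0.0632, n = 3). The median log2 difference, female knockout minus wild type, was -0.95, and 28 members (0.185%) had a female knockout mean at or above the wild-type mean. These values restate the choice and are given without a test.

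**Figure D1:**
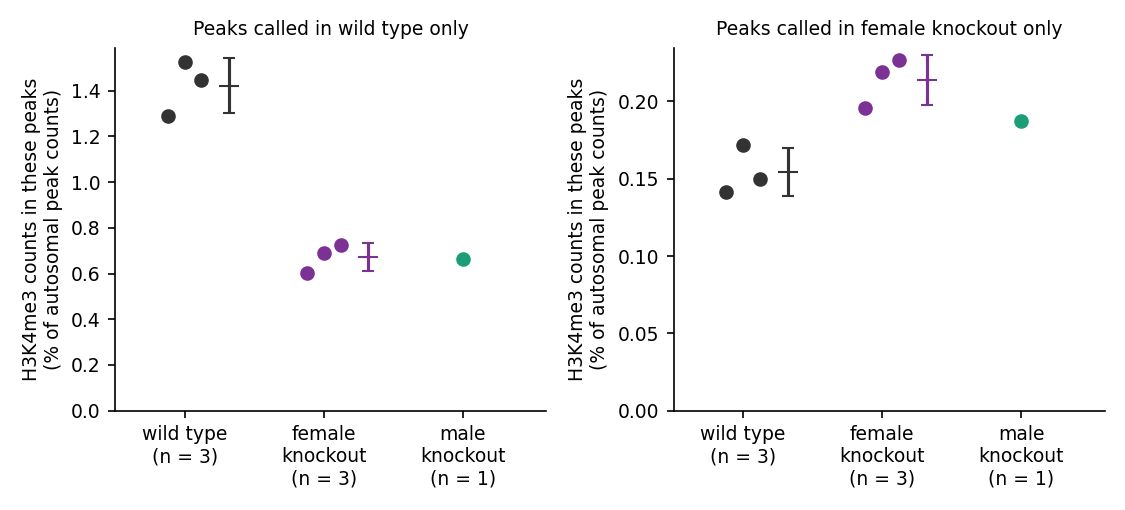
H3K4me3 counts falling in wild-type-only peaks (left) and in female-knockout-only peaks (right), as % of autosomal peak counts, with a point for each library and the mean with SD beside groups of 3. The male knockout library, at 0.662% on the left, lies among the female knockout libraries. On the right it lies at 0.188%, between the wild-type and female knockout libraries.

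The male knockout library took no part in calling either list. It carried 0.662% of its counts in the members, below each of the 3 wild-type libraries and between the lowest and the highest female knockout library. At the median member it had 0.366 CPM, against 0.723 to 0.855 CPM in the wild-type libraries and 0.356 to 0.411 CPM in the female knockout libraries. At peaks called in the female knockout only it carried 0.188%, above the 0.142% to 0.172% of wild type and below the 0.196% to 0.227% of the female knockout. In its summed share of counts, the male library thus held female knockout levels at the wild-type-only peaks and an intermediate level at the knockout-only peaks.

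H3K4me3 at the members was lower in the male knockout than in wild type at most peaks tested. Of 15128 members that passed the low-count filter, 8182 (54.1%) were lower and 29 (0.192%) higher at an adjusted p under 0.05 (edgeR's quasi-likelihood test, Benjamini-Hochberg over all 89143 autosomal rows). The median log2 difference was -1.01, with quartiles of -1.47 and -0.60, and the remaining 3 members were not tested. Over all rows of both lists 26% were lower and 23.3% higher, with a median of -0.08. Shared wild-type peaks under 4000 bp had a median of 0.00, with 7814 of 32835 lower and 8199 higher. All rows include the members themselves, and a region called in both genotypes enters them from each list, while a member enters from the wild-type list alone. Since wild-type reads chose the members and also enter this contrast, part of the difference is built in by the choice.

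The plain order of the libraries gave the same picture. The male knockout CPM was below all 3 wild-type libraries at 13624 members (90.04%) and above all 3 at 153 (1.01%), where all autosomal rows gave 57.5% and 22.8%. Against the female knockout, the male value lay below all 3 libraries at 4517 members (29.9%), above all 3 at 3749 (24.8%) and within their range at 6865 (45.4%). The median male minus female knockout difference was -0.04, a comparison in which female knockout reads had helped to choose the members.

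DESeq2 called fewer members than edgeR, 2742 lower (21.9%) and 6 higher (0.048%) of the 12500 to which it gave an adjusted p. Of all rows with an adjusted p it called 10.8% lower and 21.5% higher. With a replicate block in edgeR 35.9% of members were lower, against 19.2% of all rows. Scaling by library size without TMM factors moved the median of all rows from -0.08 to -0.24 and left the members 0.93 below that median under both scalings. It also changed the share of calls that were higher among all rows from 47.3% to 25.2%, with 66.4% under DESeq2, while among members that share was 0.353%, 0.169% and 0.218% in the same order. The fit assumes that the lone male library varies as replicates do. Within groups the chi-square per degree of freedom between libraries was 1.06 to 1.10 over members, whereas the male knockout differed from the female knockout libraries by 1.59 to 1.63. It was 2.14 to 2.29 between the male knockout and wild-type libraries, and 1.30 to 1.45 between female knockout and wild-type libraries. Peak by peak, the male library thus varied more than replicates did.

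The choice favoured high wild-type and low female knockout reads, so the male knockout was also set against the midpoint of those 2 group means on the log2 scale. Both means hold reads that the choice used, so the midpoint is not free of it, and how far it balances the choice was not tested. The median member lay 0.52 below the midpoint (log2 -0.52, quartiles -0.94 and -0.15), and 12544 of 15128 had a negative difference. By the edgeR test 2541 members (16.8%) were below and 104 (0.687%) above, against 12.9% and 15.8% of all rows. Shared wild-type peaks had a median of 0.01 with 4374 below and 5589 above. Knockout-only peaks had a median of -0.07 with 96 of 2923 below and 304 above. At the median member the male library thus sat on the female knockout side of the midpoint. Weak shared peaks also lay below it, with medians of -0.27 at a mean level under 0.5 CPM and -0.22 at 0.5 to 1 CPM. The excess of members called below the midpoint over all rows was not kept under every setting. With a replicate block 1321 members (8.73%) were below against 8.82% of all rows. DESeq2 called 237 below and 9 above of the 3243 members to which it gave an adjusted p (7.31% below), against 3123 of 66675 rows (4.68%).

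**Figure D2:**
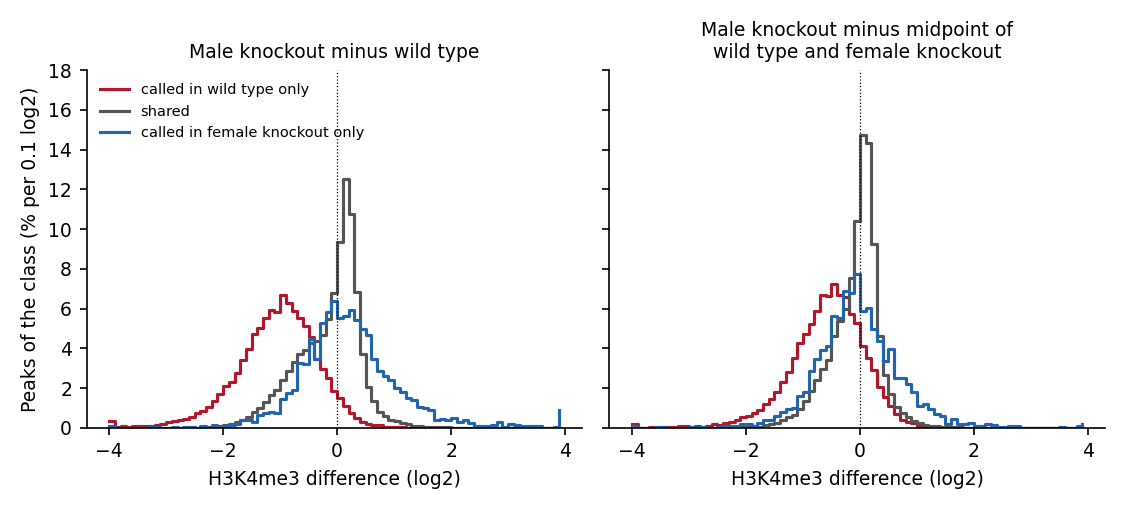
Distribution of H3K4me3 differences (log2, x axis) over peaks of each class, as % of the class per 0.1 log2 (y axis), with values beyond 4 placed in the end bins. The wild-type-only curve is centred at -1.01 on the left, male knockout minus wild type, and at -0.52 on the right, male knockout minus the midpoint, while the shared curve is centred at 0.00 and 0.01.

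Because members are weak peaks, they were set beside shared peaks of the same mean level over the 7 libraries. At 0.5 to 1 CPM, the band with the most members (6699), the median male knockout minus wild type difference was -0.96 for members and -0.37 for 3633 shared peaks. At 1 to 2 CPM it was -0.96 for 2102 members and -0.47 for 6936 shared peaks, and at 2 to 4 CPM -1.04 for 101 members and -0.34 for 5822 shared peaks. Shared peaks of 4 CPM or more had a median of 0.16, and no band of members reached that level with 20 peaks. Weak shared peaks, which the rule did not select for loss, were thus also lower in the male knockout than strong ones. They too were called on wild-type reads and not on the male library, and the part of that calling in their difference was not tested. Against the midpoint, members and shared peaks at 0.5 to 1 CPM had medians of -0.50 and -0.22. The share below the midpoint was 18.1% of members and 10.8% of shared peaks in that band.

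**Figure D3:**
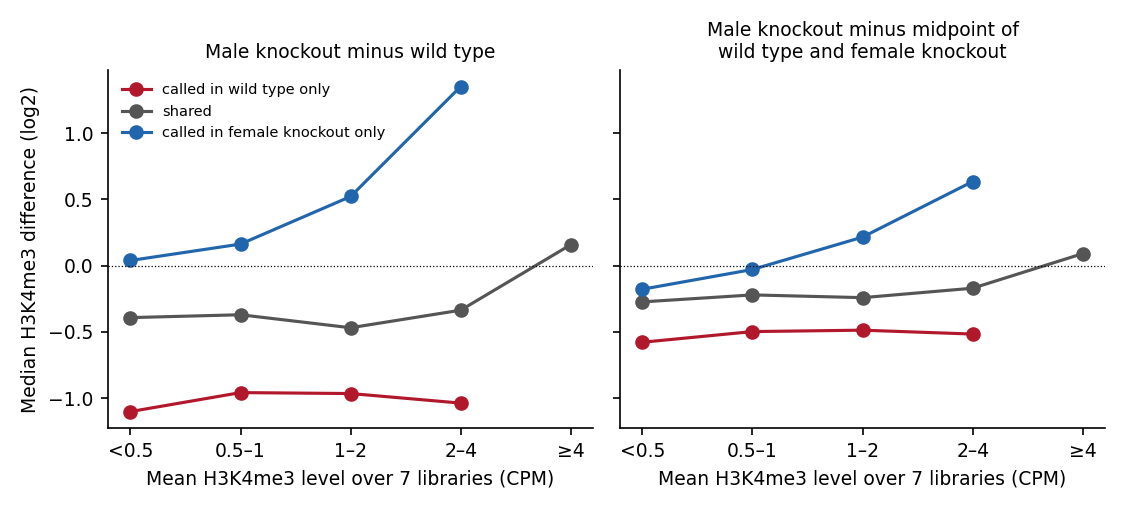
Median H3K4me3 difference (log2, y axis) in bands of the mean level over the 7 libraries (CPM, x axis) for peaks called in wild type only, shared and called in the female knockout only, with bands of fewer than 20 peaks left out. In each band up to 2 to 4 CPM the wild-type-only points lie below the shared points, and shared peaks rise above 0 only at 4 CPM or more.

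The member with the lowest p for a fall was chr10:22002437-22003257, an 821-bp peak with 213, 189 and 307 counts in wild type, 27, 17 and 20 in female knockout libraries and 9 in the male knockout. In CPM these were 7.33, 8.51 and 8.84, then 0.686, 0.493 and 0.587, then 0.235, so no knockout library approached wild type. The male knockout was -4.95 ± 0.27 (log2, SE) from wild type (edgeR adjusted p = 1.96e-67) and -3.12 ± 0.35 from the midpoint (adjusted p = 2.13e-16). An H3K27me3 peak of 5584 bp covered this member. Its level was 16.7, 19.4 and 17.5 CPM in wild type, 10.8, 9.12 and 9.59 in female knockout libraries and 12.46 in the male knockout, so both marks were lower in both knockouts there. For H3K27me3 the difference from wild type was -0.82 in the female knockout (adjusted p = 6.02e-22) and -0.49 in the male knockout (adjusted p = 0.000459).

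A pair of neighbouring members on chromosome 1 came next by p, and they are not independent sites. The 1203-bp peak at chr1:183851666-183852868 had 8.95, 7.79 and 9.13 CPM in wild type, 0.559, 0.435 and 0.558 in female knockout libraries and 0.497 in the male knockout. The male difference from wild type was -3.96 ± 0.23 (edgeR adjusted p = 9.05e-62). Its neighbour at chr1:183853438-183854270 had 4.06, 4.91 and 4.12 CPM, then 0.508, 0.696 and 0.616, then 0.366, with a male difference of -3.39 ± 0.29. In both peaks all 4 knockout libraries were below all wild-type libraries, and neither overlapped a UTX or H3K27me3 peak. The fourth by p was the 1691-bp peak at chr9:102694340-102696030, at 4.34, 3.69 and 4.18 CPM in wild type, 0.711, 0.696 and 0.939 in female knockout libraries and 0.366 in the male knockout (difference from wild type -3.32 ± 0.30).

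The widest members showed smaller differences than the members with the lowest p. The 2654-bp peak at chr11:65590673-65593326 had 115, 119 and 167 wild-type counts, 81, 67 and 94 female knockout counts and 86 male knockout counts, a male difference of -0.90 ± 0.18. The 2509-bp peak at chr6:112216141-112218649 had 159, 134 and 168, then 81, 75 and 94, then 59 counts, a male difference of -1.64 ± 0.19. The chromosome 11 peak lay within the female knockout range in the male library, and the chromosome 6 peak lay below it in CPM.

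A few members were high in the male knockout alone. The 377-bp peak at chr10:37097989-37098365 had 19, 11 and 25 wild-type counts, 9, 21 and 18 female knockout counts and 66 male knockout counts, a male difference from wild type of 1.59 ± 0.30 (edgeR adjusted p = 1.08e-06). The 177-bp peak at chr16:55556235-55556411 had 11, 12 and 10, then 11, 12 and 14, then 44 counts (difference 1.72 ± 0.37). The peaks at chr5:114354961-114355435 and chr8:49485972-49486233 had 57 and 40 male knockout counts, against 17 to 25 and 11 to 15 in wild type. At all 4 the male library was above the other 6, while wild-type and female knockout counts were of similar size. The 1088-bp peak at chr17:88893348-88894435 held more reads but was also high in wild type. It had 2.10, 3.24 and 2.68 CPM in wild type, 0.914, 1.22 and 1.09 in female knockout libraries and 3.35 in the male knockout. It lay 1.09 ± 0.18 above the midpoint (edgeR adjusted p = 5.52e-08), and the male library was above all 3 wild-type libraries. Against wild type the difference was 0.50 ± 0.19 (edgeR adjusted p = 0.0175, DESeq2 adjusted p = 0.121), and without the first wild-type library 0.37 (adjusted p = 0.0971). Scaled by library size without TMM factors it was 0.34 (adjusted p = 0.141). Each of these 5 values rests on 1 male library.

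**Figure D4:**
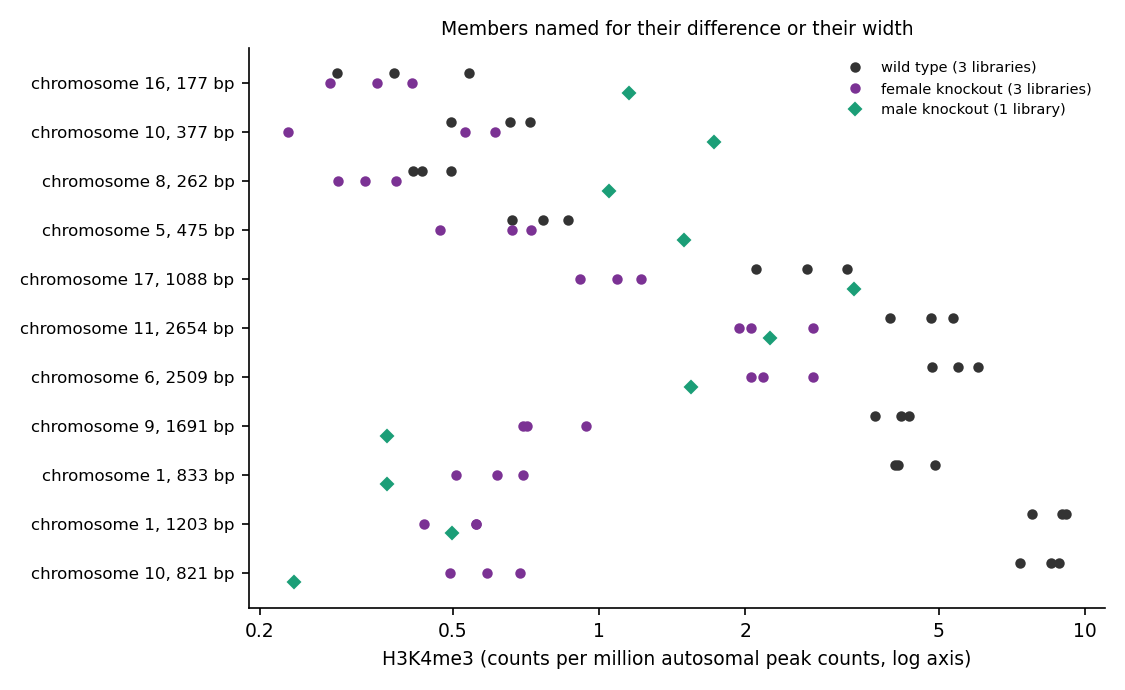
H3K4me3 level (CPM, log x axis) in each library at the members with the lowest p in the male knockout contrasts and at the 2 widest members (y axis, by chromosome and width), ordered by the male knockout minus wild type difference. At the 4 lowest entries all knockout points lie below 1 CPM and all wild-type points above 3.6 CPM, and at the 4 highest entries the male knockout point lies to the right of the other 6.

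UTX peaks of the O9-1 line overlapped 1190 of 15131 members by at least 1 bp, 7.86% (95% Clopper-Pearson interval 7.44 to 8.31%), against 32.5% (32.0 to 33.0%) of shared peaks and 6.52% (5.66 to 7.48%) of knockout-only peaks. The intervals cover counting error only. Overlap grew with peak width, so classes were compared within width bands. At under 300 bp the share was 6.47% of members and 6.42% of shared peaks, and at 300 to 500 bp 6.97% and 7.07%. At 500 to 1000 bp it was 9.24% and 11.1%, and at 1000 bp or more 15.1% of 736 members and 51.3% of 18018 shared peaks. Narrow members thus overlapped UTX peaks at the share seen for narrow shared peaks, and wider members at a lower share. The widest band did not match the classes in width, since members there had a median of 1173 bp and reached 2654 bp. Shared peaks reached 3998 bp, and the part of width in that band was not tested. The 1137 UTX peaks that met a member, 5.25% of the 21656 autosomal UTX peaks, had a median of 43.5 reads per kb against 48.4 over all.

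Members with a UTX peak did not stand out in H3K4me3. Their median male knockout minus wild type difference was -1.01 (685 of 1190 lower, 57.6%, and 1 higher), and it was -1.01 for the 13941 members without (53.8% of those tested lower). Against the midpoint the medians were both -0.52. No test was made between these sets, since members are not replicates.

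Ranked by reads per kb of the UTX peak, the first 4 members lay in very wide UTX regions. They were chr5:143567854-143568013, chr19:5824821-5825230, chr17:84580032-84580423 and chr5:143727812-143728589, in UTX peaks of 22993, 31370, 10619 and 7970 bp with 153, 134, 134 and 105 reads per kb. Of these only the chromosome 19 member passed the test, at 17, 13 and 22 counts in wild type, 7, 14 and 9 in female knockout libraries and 7 in the male knockout (log2 -1.55 ± 0.54, edgeR adjusted p = 0.0116, DESeq2 adjusted p = 0.123). The other 3 had male differences of -0.31, -0.68 and -0.35. This ranking was chosen after the values were seen, because the deposited score, planned for it, did not follow the reads. Ranked by that score, 1 of the 4 members had over 30 counts in every wild-type library, chr1:122154881-122155729, with 87, 66 and 101 counts in wild type, 31, 33 and 35 in female knockout libraries and 26 in the male knockout (log2 -1.96 ± 0.27, edgeR adjusted p = 3.96e-11). The others were chr19:10783856-10784346 (log2 -1.20, edgeR adjusted p = 0.00759, DESeq2 adjusted p = 0.119), chr2:155698745-155699333 (-1.27, edgeR adjusted p = 0.0023, DESeq2 adjusted p = 0.06) and chr12:113513003-113513435 (-0.21, edgeR adjusted p = 0.696). Without the third wild-type library the chromosome 19 difference was -0.92 (adjusted p = 0.0906).

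H3K27me3 peaks of either list overlapped 1477 members, 9.76% (9.29 to 10.2%), against 35.6% (35.1 to 36.1%) of shared peaks and 20.3% (18.8 to 21.8%) of knockout-only peaks. Unlike the UTX overlap, this difference was present at every width. At under 300 bp the share was 9.38% of members, 19.04% of shared and 19.3% of knockout-only peaks. At 500 to 1000 bp it was 9.58%, 31.6% and 23.7%, and at 1000 bp or more 12.8%, 41.7% and 20.5%. The wild-type-only peaks were therefore mostly outside H3K27me3 regions, at 13654 of 15131, more so than either other class. Of the 1477, 1011 met peaks of both H3K27me3 lists, 193 the wild-type list alone and 273 the female knockout list alone. A UTX and an H3K27me3 peak were both present at 87 members.

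**Figure D5:**
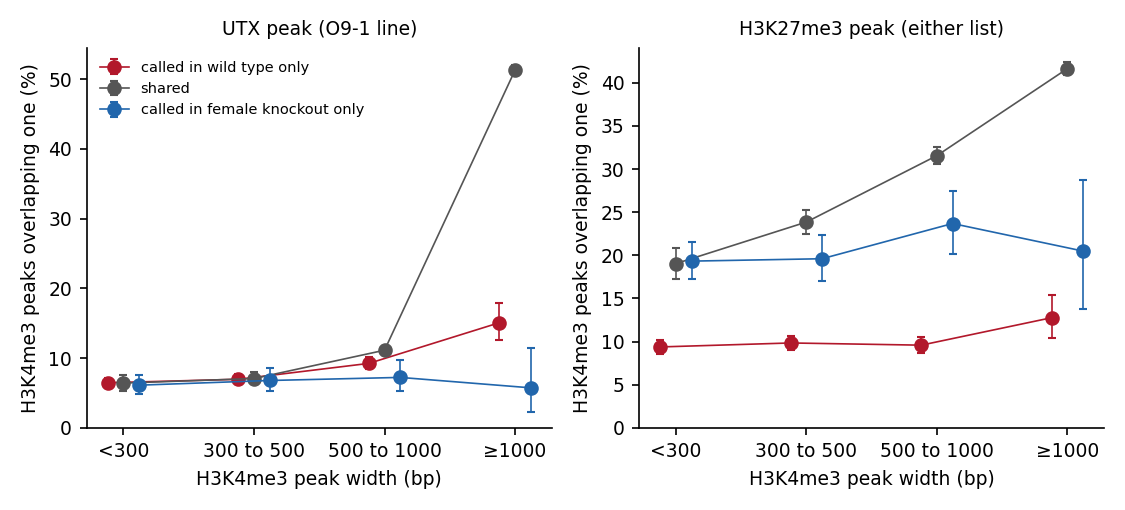
Share of H3K4me3 peaks (%, y axis) that overlap a UTX peak of the O9-1 line (left) or an H3K27me3 peak of either list (right), by H3K4me3 peak width (bp, x axis), with exact 95% binomial intervals. On the left the 3 classes lie together under 500 bp, and on the right members lie at 9.38% to 12.8%, below both other classes in every band.

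Members inside H3K27me3 peaks had the smaller H3K4me3 differences. The median male knockout minus wild type difference was -0.71 at the 1477 members with an H3K27me3 peak (560 lower and 10 higher of 1476 tested) and -1.04 at those without (7622 lower and 19 higher of 13652). It was -0.67 at the 1011 members in peaks of both lists. Against the midpoint the medians were -0.29 with and -0.54 without. Members with H3K27me3 held 9.95% to 9.99% of member counts in the wild-type libraries, 10.9% in each female knockout library and 12.04% in the male knockout. They also lay closer to knockout H3K4me3 peaks, a median of 5550 bp against 16544 bp, and nearer members had smaller differences, with medians of -0.73 under 1000 bp, -0.95 at 1000 to 5000 bp and -1.02 at 5000 to 20000 bp. The part of that distance in the H3K27me3 difference was not tested.

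The 4 members whose wild-type H3K27me3 peak had the highest mean level sat inside domains of over 100 kb. They were chr6:52226040-52226455, chr15:102950250-102950566, chr2:74524658-74524878 and chr7:86676260-86676548, in H3K27me3 domains of 185898, 230775, 127375 and 117255 bp. The first had an H3K4me3 level of 0.792, 0.945 and 0.662 CPM in wild type, 0.432, 0.522 and 0.528 CPM in female knockout libraries and 0.628 CPM in the male knockout. The male difference from wild type passed the test at the chromosome 15 member (log2 -1.08 ± 0.45, edgeR adjusted p = 0.0371, DESeq2 adjusted p = 0.222), where the second wild-type library held 31 counts and the others 18 and 14. Without that library the difference was -0.53 (adjusted p = 0.398). For the other 3 it was -0.16, -0.29 and -0.49. In CPM the male library lay below all 3 wild-type libraries at each of these members, and only the chromosome 15 difference passed the edgeR test.

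H3K27me3 itself was measured on 2293 peaks of both lists that overlap a member, in libraries with 15070248 to 18248985 autosomal counts. This mark took no part in choosing the members. In the female knockout 463 of 2287 tested (20.2%) were higher than wild type and 159 (6.95%) lower by edgeR, with a median log2 difference of 0.06, against 13.9% and 11.9% of all autosomal H3K27me3 peaks. In the male knockout 162 of 2293 (7.06%) were higher and 46 (2.01%) lower, with a median of 0.04, against 4.28% and 2.66% of all. H3K27me3 peaks at the wild-type-only sites were thus called higher more often than lower in each knockout, and most changed by little. The 2 knockouts were compared with the same 3 wild-type libraries. A region called in both genotypes is listed as 2 peaks and counted as such.

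The H3K27me3 peaks that met members were wide, and the calls followed width. Their median width was 3182 bp, against 2052 bp for the other H3K27me3 peaks. At 10000 bp or more 39.9% of those with a member and 40.7% of those without were higher in the female knockout, and 9.51% and 10.2% lower. At 2000 to 5000 bp 18.9% and 16.9% were higher, but 6.36% and 17.8% lower. At 5000 to 10000 bp 28.5% and 22.6% were higher, and 8.61% and 21.1% lower. In the male knockout the higher shares were 5.43% and 5.33% at 2000 to 5000 bp, 12.7% and 9.86% at 5000 to 10000 bp and 15.8% and 11.6% at 10000 bp or more. The lower shares there were 1.09% and 3.56%, 2.63% and 4.72%, and 2.09% and 4.18%. Within these bands of width, then, higher calls were about as common or more common with a member. Lower calls were less common with a member from 2000 to 10000 bp in both knockouts. Narrower peaks differed in the male knockout, with 2.66% lower with and 1.12% without a member under 1000 bp. At 1000 to 2000 bp the male lower shares were 2.17% and 1.74%. In the female knockout the lower shares were 3.61% and 4.73% under 1000 bp, and 6.29% and 7.71% at 1000 to 2000 bp. No test was made of these shares. Of the 1463 peaks that met a member and no shared H3K4me3 peak, 144 (9.88%) were higher and 109 (7.48%) lower in the female knockout. All autosomal H3K27me3 peaks gave 13.9% and 11.9%. In the male knockout 39 (2.67%) were higher and 34 (2.32%) lower, against 4.28% and 2.66%. The 830 peaks that met a member and a shared peak had a median width of 8529 bp. Of these 38.4% were higher and 6.02% lower in the female knockout, and 14.8% and 1.45% in the male knockout. Only the peaks that also met a shared peak exceeded the share higher over all. Peaks that met neither kind (median 1133 bp, against 1895 bp for the 1463) had 4.54% higher and 8.33% lower in the female knockout. Those with a shared peak and no member (median 3056 bp) gave 18.5% and 14.5%. Peaks with a member were thus higher more often than these. Median male differences were -0.01 for the 1463 and -0.10 with neither kind. With a shared peak they were 0.06 with and 0.02 without a member. The part of width was not tested. Scaled by library size without TMM factors, 56.7% of the female calls at member sites were higher instead of 74.4%, and 63.8% of the male calls instead of 77.9%. Over all autosomal H3K27me3 peaks these shares were 39.1% instead of 53.9% and 45.4% instead of 61.6%. DESeq2 called 283 higher and 81 lower in the female and 57 and 6 in the male knockout. Of these DESeq2 calls 77.7% and 90.5% were higher, against 56.99% and 73.96% over all peaks. The share of calls that were higher thus stayed above that of all peaks under both settings.

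The fall in H3K27me3 with the lowest p at a member was at chr10:81955646-81956757, at 6.78, 6.65 and 7.23 CPM in wild type, 1.42, 1.40 and 2.41 in female knockout libraries and 1.37 in the male knockout. The female difference was -1.95 ± 0.16 (edgeR adjusted p = 4.68e-32) and the male difference -2.28 ± 0.25. The member inside it, chr10:81955837-81956293, had 39, 33 and 54 H3K4me3 counts in wild type, 4, 2 and 5 in female knockout libraries and 3 in the male knockout. Both marks were lower here in all 4 knockout libraries than in all 3 wild-type libraries. The second entry by p is the same region in the female knockout list. The third was chr4:148430927-148436940, at 15.2, 16.1 and 17.5 CPM in wild type, 8.06, 8.39 and 7.31 in female knockout libraries and 11.1 in the male knockout.

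The rise with the lowest p was in the H3K27me3 peak at chr2:31728818-31733898, at 30.2, 28.1 and 29.0 CPM in wild type, 63.0, 66.4 and 61.8 in female knockout libraries and 48.9 in the male knockout. The female difference was 1.18 ± 0.05 (edgeR adjusted p = 3.80e-129) and the male difference 0.78 ± 0.07 (adjusted p = 3.44e-26). Its member, chr2:31731939-31732244, had an H3K4me3 level of 0.654, 0.765 and 0.691 CPM in wild type, 0.457, 0.319 and 0.587 CPM in female knockout libraries and 0.576 CPM in the male knockout. All 4 knockout libraries lay below wild type there, but the male difference (log2 -0.12 ± 0.39) did not pass the test (edgeR adjusted p = 0.811). The next was the 18440-bp peak at chr12:110682117-110700556, at 98.0 to 102 CPM in wild type, 164 to 166 in female knockout libraries and 137 in the male knockout. The third is the female knockout list's wider entry for the same chromosome 2 region.

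H3K4me3 was lower in the male knockout at the median member whichever way H3K27me3 was called. The median male knockout minus wild type H3K4me3 difference was -0.63 at the 285 members in an H3K27me3 peak called higher in the female knockout. It was -0.80 at the 122 in a peak called lower and -0.72 at the 1070 in a peak without a call. By the H3K27me3 calls of the male knockout itself the order was the other way, with -0.77 at 101 members in a peak called higher, -0.67 at 31 in a peak called lower and -0.71 at 1345 without a call. These are medians over sites that share libraries and are given without a test.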

How the data were processed

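Per the labels, H3K4me3 and H3K27me3 were profiled in 7 libraries each. Per the submitters' processing notes Trimmomatic, Bowtie2, SAMtools, bedtools and MACS2 were used on build mm9, with versions and settings not given in the sources used here. The authors deposited raw read counts per MACS2 broad peak for the wild-type and female knockout lists, called on pooled replicates. The deposited lists also give a fold enrichment ratio and −log10 q per peak. RNA read counts per gene served for the marker check only. No mm9 annotation or sequence was used here, so peaks are named by 1-based coordinates and not by gene. The members, lists and tests were chosen with earlier results of these data known.

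Overlap meant at least 1 shared bp. Autosomal rows of both lists were fitted together with edgeR 4.0.16 (TMM factors, filterByExpr, quasi-likelihood F test, 3 group means, 7 libraries; 6 libraries for the female H3K27me3 comparison), with Benjamini-Hochberg adjustment over all rows and a threshold of 0.05. CPM is scaled to the sum of autosomal peak counts over both lists, so reads in a region on both lists are counted for each. Named peaks were the members with the lowest p in each direction, the highest deposited −log10 q or UTX score, the strongest H3K27me3 peak or the largest width, those next to the rule's limits, and the H3K27me3 peaks with the lowest p; chromosome 18 was counted but not named. On simulated counts for the male H3K4me3 contrast, run on 88988 rows, 67% of 2-fold and 93% of 4-fold changes were found with 1 false call. For the male H3K27me3 contrast, run on 34060 rows, 74% and 91% were found with 3 false calls. Outside the changed peaks, the simulation gave all libraries the same mean per peak and the same spread, the male library included. It holds no extra spread in the lone male library, so its false calls do not measure those of the real contrasts. Alternatives were DESeq2 1.42.0, other scalings, no count filter, the wild-type list alone, a replicate block, each replicate left out and stricter sets of members.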

Additional observations from a re-analysis of the deposited data

Results flagged for a closer look

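Among H3K27me3 peaks overlapping members, a direct edgeR test of male minus female knockout called 37 lower and 30 higher in the male knockout, 1.61% and 1.31% of those tested, against 1.41% and 1.43% of all autosomal H3K27me3 peaks. For H3K4me3 the female knockout reads had helped to choose the members, so the same contrast is given as a description: 1.16% of members were called lower and 2.02% higher in the male than in the female knockout, against 4.66% and 7.25% of all autosomal rows. These values rest on 1 male library, and sex differs between the knockouts too.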

How the results depend on the processing

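The male knockout fall at members kept its direction in every setting tried. DESeq2 lowered the counts of calls, to 2742 lower and 6 higher against wild type, 237 and 9 against the midpoint, and for H3K27me3 to 81 lower and 283 higher in the female and 6 and 57 in the male knockout. Library size without TMM factors gave 16 higher against wild type, 59 above the midpoint, 254 H3K27me3 peaks lower in the female and 71 in the male knockout, and medians of -1.17 (male) and -1.07 (female knockout, untested) for H3K4me3. With H3K27me3 peaks of the wild-type list alone, 75 were lower and 266 higher in the female and 25 lower in the male knockout, from fewer peaks tested. Deviations of same-numbered libraries correlated weakly or not at all, with r of 0.14, 0.02 and 0.03 for H3K4me3 and 0.00, -0.00 and 0.02 for H3K27me3. The first wild-type H3K4me3 library correlated best with its own number. The other 2 of 3 did so with another number, the third by only 0.0290 against 0.0277. With 3 libraries per group these values cannot decide whether replicate numbers pair the libraries. A replicate block gave 5426 lower against wild type (29 higher) with a median of -0.88, and 1321 below the midpoint with a median of -0.40. Leaving out each replicate gave 19 to 30 members higher against wild type, with 19 without the third wild-type library. Members with at least 200 counts, a set chosen after seeing the data, had 28.7% below the midpoint, 10.6% with UTX and 11.4% with H3K27me3. UTX overlap was 6.920% for half-width overlap and 9.68% within 1000 bp, and H3K27me3 overlap 8.70% and 13.01%, with 9.01% for members over 1000 bp from knockout peaks. Among the named peaks, 4 uncalled male differences changed sign: chr12:88252613-88252951 (0.04) with library size (-0.12), TMM factors from shared peaks (-0.0179) and a replicate left out (-0.20 to 0.17), chr10:127781868-127782096 (-0.59) with the block (0.39), and, with a replicate left out, chr12:113513003-113513435 (-0.44 to 0.00493) and chr5:143567854-143568013 (-0.52 to 0.0343). With a median of 125 counts over 7 libraries, depth limits what can be said of a single member.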

Other observations

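The deposited −log10 q of the H3K4me3 lists did not follow the reads in the same peaks. Its rank correlation with counts per kb was 0.02 over the 15131 members and 0.05 over the wild-type list, whereas in the 2 H3K27me3 lists it was 0.93, as a description across peaks of pooled libraries. The UTX list gave 0.07. The 5 members with the highest deposited −log10 q, 30.6 to 35.4, held 7 to 28 counts in each wild-type library. At the first, chr5:16995544-16995812, counts were 8, 15 and 12 in wild type, 4, 3 and 7 in female knockout libraries and 7 in the male knockout. Only chr14:116219699-116220086 among the 5 passed the edgeR test of male knockout against wild type (log2 -2.39 ± 0.56, adjusted p = 0.000127; DESeq2 adjusted p = 0.105), with 21, 19 and 27 counts in wild type, 11, 1 and 15 in female knockout libraries and 5 in the male knockout. A minimum of 5 on this column is therefore no stricter read limit, and members with at least 200 counts were examined instead.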
